A study of Mus musculus with 2 samples.

Results

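Lipid is stored in cells as a droplet of triacylglycerol under a coat of proteins. The 10 genes described here act on that droplet or mark the fat cell: the 5 perilipins Plin1, Plin2, Plin3, Plin4 and Plin5, the lipases Pnpla2 and Lipe, the droplet fusion gene Cidec, and the secreted products Adipoq and Cfd. They are 10 of 55536 annotated genes, picked by symbol to set droplet proteins found in muscle beside those of adipocytes. Both libraries' values were known when the genes were picked, so their levels and the contrast of muscle and adipocyte forms are a description and carry no test.

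Perilipins bind the droplet surface and control the access of lipases. Plin1 is the coat protein of adipocytes, Plin2 and Plin3 occur in most tissues, and Plin5 is best known from oxidative tissues such as muscle and heart, where it ties droplets to mitochondria. Pnpla2 (adipose triglyceride lipase) removes the first fatty acid from triacylglycerol, and Lipe (hormone-sensitive lipase) acts on the diacylglycerol that remains.

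The samples were gastrocnemius, a calf muscle, of male mice of strain B6CASTF1/J aged 14 days, a cross of C57BL/6 and CAST backgrounds with no treatment or genetic change named. Total RNA was sequenced from 300 ng per library with synthetic RNA added. The single group held 2 biological replicates. Their labels mention 3 males and give both libraries the same donor entry, so it is not clear whether the libraries come from separate animals or from pooled ones, and the spread between them may be partly technical. Replicate 1 held 40825601 expected counts and replicate 2 held 37329025. A count of 3, used as the detection floor, was 0.0735 CPM (counts scaled to the library total) in replicate 1 and 0.0804 CPM in replicate 2. The tissue label fitted its markers: all 8 muscle fibre markers exceeded 1 TPM (a level per transcript length, scaled to the library total) in both libraries. Skeletal actin Acta1 stood at 26589.7 TPM in replicate 1, against 28619.7 TPM in replicate 2.

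The most abundant of the 10 genes were Pnpla2 and Plin4, and the least abundant were Adipoq, Plin1 and Cidec. Pnpla2 averaged 130.6 ± 27.2 TPM and Plin4 104 ± 51.1 TPM (SD, n = 2), and their ranges over both libraries overlapped. Plin2 came next at 27.8 ± 3.18 TPM, ahead of Plin3 at 19.5 ± 8.09 TPM and Plin5 at 17.5 ± 6.1 TPM (SD, n = 2), of which Plin3 and Plin5 overlapped. Lipe at 7.28 ± 1.7 TPM and Cfd at 5.96 ± 6.14 TPM (SD, n = 2) overlapped as well. Adipoq, Plin1 and Cidec, at 1.33 ± 1.29, 1.15 ± 1.31 and 1.02 ± 1.11 TPM (SD, n = 2), could not be ordered. In both libraries 7 of the 10 genes reached 1 TPM, and the exceptions were Plin1, Cidec and Adipoq in replicate 1. Among protein-coding genes ordered by mean TPM, Pnpla2 ranked 424 and Plin4 513, whereas Plin1 ranked 10864 and Cidec 11064.

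**Figure D1:**
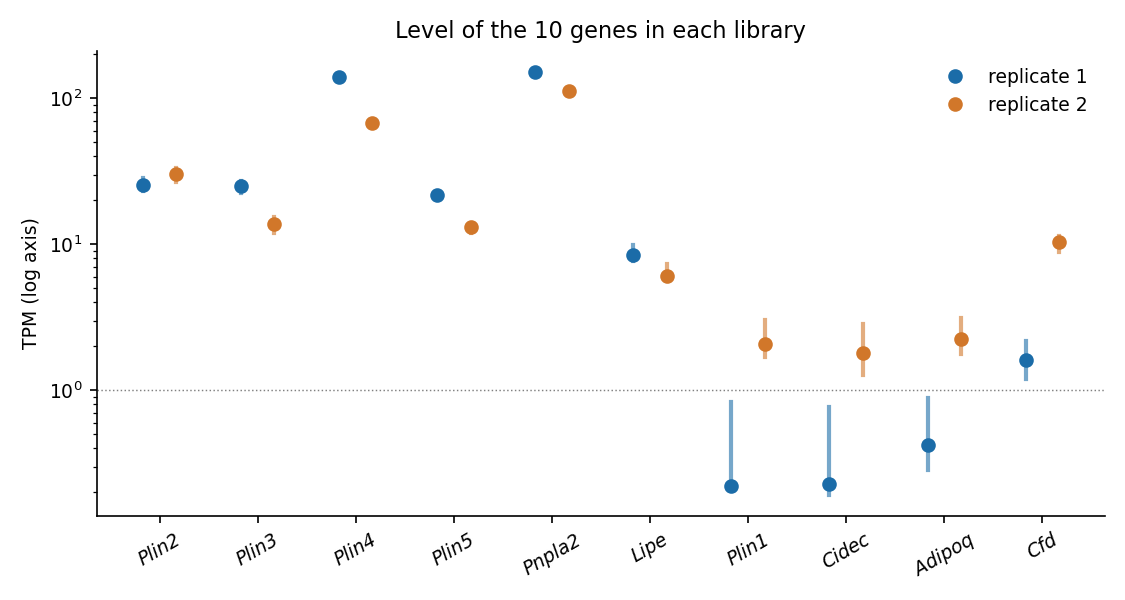
TPM of each gene in replicate 1 (blue, left) and replicate 2 (orange, right) on a log axis; bars are the deposited intervals of the quantifier and the dotted line is 1 TPM. Plin1, Cidec and Adipoq lie below 1 TPM in replicate 1 and above it in replicate 2. Plin2 to Plin5, Pnpla2, Lipe and Cfd stay above it in both.

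The libraries differed for most of these genes. Plin1, Cidec, Adipoq and Cfd, sorted as adipocyte forms, did so in the direction opposite to Plin3, Plin4, Plin5 and Pnpla2, sorted as muscle forms. With scaled counts compared by a two-sided exact binomial test (Benjamini-Hochberg over 17245 genes with at least 10 counts, threshold 0.05), 9 of the 10 genes differed beyond counting error. Plin3, Plin4, Plin5, Pnpla2 and Lipe were higher in replicate 1, and Plin1, Cidec, Adipoq and Cfd were lower in replicate 1. The same test called 21.5% of all genes tested, 10.6% as higher in replicate 1 and 10.9% as higher in replicate 2. A log2(TPM + 1) difference over 1 in size was held by 5 of the 10 genes, Plin4 and the 4 adipocyte genes, and by 1.1% of genes averaging 1 TPM or more; all 5 were also called, as were 0.591% of the genes tested. The test compares these 2 libraries and not any condition. The genes were picked with these values known, so their counts beside the shares of all genes carry no test of an excess. Scaled by the added RNA instead, the same 5 and 4 genes were called in the same directions, but 50.8% of all genes tested were then higher and 1.72% lower in replicate 1. On the log2(TPM + 1) scale the median difference, replicate 1 minus replicate 2, was 0.10 over the 10 genes, 0.69 over Plin2 to Plin5 with Pnpla2, and -1.26 over the 4 adipocyte genes, against 0.04 over all genes that averaged 1 TPM or more. These medians follow from how the genes were sorted into forms and carry no test. The forms are assigned labels and do not limit a gene to 1 tissue, Plin4 and Pnpla2 included. The cells that made each RNA were not measured.

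**Figure D2:**
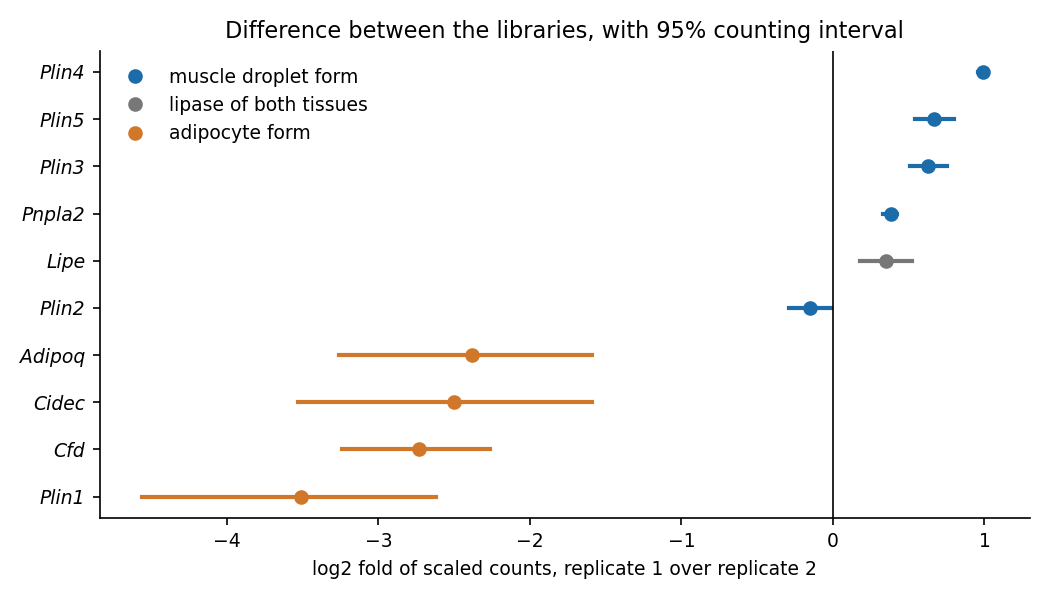
Log2 fold of scaled counts, replicate 1 over replicate 2, with the exact 95% interval for counting error. Plin4 lies highest at 0.99 and Plin1 lowest at -3.51, and the intervals of the 4 adipocyte genes all lie below -1.

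Plin4 was the leading perilipin. It had 140.05 TPM in replicate 1, against 67.85 TPM in replicate 2, from 25375 and 11502 expected counts. The log2 fold of scaled counts was 0.99 (95% interval 0.96 to 1.02), and its adjusted p was too small to be represented. Plin4 made up 65.8% of the summed perilipin TPM in replicate 1 and 53.5% in replicate 2. It lies at chr17:56100591-56109803 (mm10, minus strand), and Hdgfl2 on the opposite strand overlaps it with a mean of 12.2 TPM. The sources used here do not give whether the counting used strand.

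Plin4 is the longest perilipin and carries a tandem repeat in its coding sequence, of which 3 units are shown. In the 4209 coding bases without the stop codon, 58.4% of bases equalled the base 99 bases further on, against a median of 25.5% over shifts of 30 to 150 bases. The repeat ran from coding base 473 to 2959, a stretch of 25 units of 33 codons and 59.1% of the coding bases. Adjacent units from the annotated transcript Plin4-202 (GENCODE M21) read as follows, 5′ to 3′ on the minus strand of chromosome 17, with capitals at the bases that differ from the first unit shown.
Plin4 unit at chr17:56106304-56106402: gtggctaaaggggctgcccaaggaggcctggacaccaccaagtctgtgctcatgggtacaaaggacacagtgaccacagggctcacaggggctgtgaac
Plin4 unit at chr17:56106205-56106303: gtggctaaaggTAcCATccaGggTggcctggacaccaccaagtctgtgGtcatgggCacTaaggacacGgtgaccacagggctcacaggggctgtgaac
Plin4 unit at chr17:56106106-56106204: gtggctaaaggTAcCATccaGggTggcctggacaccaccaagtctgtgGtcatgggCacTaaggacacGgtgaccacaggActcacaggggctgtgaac
The lower units differ from the upper one at 11 and 12 of their 99 bases. Such units encode the helical repeat with which Plin4 binds the droplet surface. The sources used here do not give how reads that match several units were placed.

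Plin5 and Plin3 lie on the same strand of chromosome 17 as Plin4 and differed between the libraries in the same direction. Plin5 had 21.8 TPM in replicate 1, against 13.2 TPM in replicate 2 (1319 and 746 counts), a log2 fold of 0.67 (exact binomial adjusted p = 4.2e-23). Plin3, a perilipin that moves from the cytosol onto young droplets, had 25.2 TPM in replicate 1, against 13.8 TPM in replicate 2 (1479 and 860 counts), a log2 fold of 0.63 (exact binomial adjusted p = 2.9e-23). Plin5 (chr17:56111601-56117596) lies 1797 bases from Plin4 with no gene between, and Plin3 (chr17:56277476-56292873) lies 159879 bases further, beyond 11 annotated genes of which 7 are protein-coding. The ratio of Plin4 to Plin5 was 6.42 in replicate 1 and 5.14 in replicate 2, and that of Plin4 to Plin3 was 5.56 and 4.93.

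Plin2 was the exception among the genes sorted as muscle droplet forms. It had 25.6 TPM in replicate 1, against 30.1 TPM in replicate 2, from 886 and 884 counts, a log2 fold of -0.15 that did not pass (exact binomial adjusted p = 0.111). Scaling by the added RNA turned the sign of Plin2, to 0.14, and the second quantification called it lower in replicate 1 (log2 fold -0.21, exact binomial adjusted p = 0.0194). Plin2 (chr4:86648386-86670060, minus strand) coats droplets in most cell types and its protein is degraded when not bound to lipid. Its share of the summed perilipin TPM was 12% in replicate 1 and 23.7% in replicate 2. By contrast the share of Plin5 was 10.3% and 10.4%, and that of Plin3 11.8% and 10.8%, in replicate 1 and replicate 2. The ratio of Plin2 to Plin5 was 1.17 in replicate 1 and 2.28 in replicate 2.

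Plin1, the adipocyte perilipin, went the other way. It had 0.22 TPM in replicate 1, against 2.07 TPM in replicate 2, from 11 and 113 counts. The deposited interval was 0.241 to 0.836 TPM in replicate 1, against 1.7 to 3.02 TPM in replicate 2, and these intervals did not overlap. They belong to the quantifier's posterior mean, 0.52 TPM in replicate 1, and the reported TPM of 0.22 lies under the interval. The log2 fold of counts was -3.51 (95% interval -4.56 to -2.62, exact binomial adjusted p = 2.2e-23). Plin1 lies at chr7:79720218-79732903. The sum of Plin2 to Plin5 exceeded Plin1 in TPM by a ratio of 966.5 in replicate 1 and 60.3 in replicate 2, and the log2 ratio of (TPM + 1) averaged 6.40 ± 1.48 (SD, n = 2). Plin1 made up 0.103% of the summed perilipin TPM in replicate 1 and 1.63% in replicate 2. In the second quantification the TPM ratio was 560.5 in replicate 1 and 49.1 in replicate 2, and the Plin1 share 0.178% and 2%. The values of replicate 1 rest on the 11 counts of Plin1.

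To show what stands before the start of the neighbouring pair Plin4 and Plin5, their core promoters were read from RefSeq (GRCm38.p6), 5′ to 3′ on the gene's strand, from 100 bases before to 20 after the start. Capitals mark any of 5 motifs searched on both strands, none of which contains another: the TATA box with the letters TATAA, the CCAAT box, the GC box written GGGCGG, the nuclear receptor motif read as AGGTCA, and the E-box with letters CACGTG. A match on the other strand appears as its reverse complement.
Plin4 at chr17:56109763-56109882: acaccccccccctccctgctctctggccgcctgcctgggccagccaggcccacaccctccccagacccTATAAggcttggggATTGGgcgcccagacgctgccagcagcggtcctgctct
Plin5 at chr17:56117529-56117648: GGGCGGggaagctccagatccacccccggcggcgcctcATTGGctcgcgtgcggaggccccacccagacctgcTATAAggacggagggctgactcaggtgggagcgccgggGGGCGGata
Both windows hold TATAA and the CCAAT box, and that of Plin5 also holds GGGCGG. A second RefSeq promoter of Plin5, at the start of Plin5-202 and not shown, holds GGGCGG and AGGTCA but neither TATAA nor CCAAT in its 300 bases. All 10 genes matched an entry, with 13 promoters in all, since Plin5, Lipe and Cidec have a pair each. In windows of 300 bases, TATAA occurred in 2 of the 13 promoters and in 24.9% of 32851 mouse promoters of that length. CCAAT occurred in 5 of the 13 (37.4% of all promoters), GGGCGG in 6 (35.7%), AGGTCA in 3 (16.3%) and CACGTG in 2 (7.15%). A match describes the letters and no binding was measured.

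Both lipases were higher in replicate 1 by nearly the same factor. Pnpla2 (chr7:141455198-141460743, plus strand) had 149.9 TPM in replicate 1, against 111 TPM in replicate 2, from 8379 and 5810 counts, a log2 fold of 0.38 (95% interval 0.33 to 0.42, exact binomial adjusted p = 3.7e-51). Lipe (chr7:25379527-25398710, minus strand) had 8.48 TPM in replicate 1, against 6.07 TPM in replicate 2, from 699 and 494 counts, a log2 fold of 0.35 (95% interval 0.18 to 0.52, exact binomial adjusted p = 4.0e-04). The ratio of Pnpla2 to Lipe was 17.7 in replicate 1 and 18.3 in replicate 2, and the log2 ratio of (TPM + 1) was 3.99 in both. An antisense gene, 4732471J01Rik, overlaps Lipe with a mean of 0.23 TPM. The ratio of Plin4 to Pnpla2 was 0.934 in replicate 1 and 0.609 in replicate 2.

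The transcripts to which the reads of Pnpla2 were assigned differ in what they encode. The leading one in both libraries and both quantifications was Pnpla2-201, which the annotation classes as a target of nonsense-mediated decay, the pathway that removes RNAs with an early stop codon. It held 57.4% of the gene's TPM in replicate 1 and 62.2% in replicate 2, and 66.1% and 63.4% in the second quantification. Its exon 2, of 82 bases (chr7:141456568-141456649), brings a stop after 70 codons, with 8 exons still to follow. The sequences below run 5′ to 3′ on the plus strand and show the end of exon 1 joined to that exon, with the stop codon in capitals, and the same junction in the coding transcript Pnpla2-203, where exon 1 joins the next exon directly.
Pnpla2-201, chr7:141455453-141456593: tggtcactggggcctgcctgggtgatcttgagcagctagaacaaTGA
Pnpla2-203, chr7:141455453-141457293: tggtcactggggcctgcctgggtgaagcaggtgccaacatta
The first 21 bases of both are the end of exon 1, and the stop lies after 23 bases of the added exon.

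The coding transcript with the longest open reading frame was scarce by these estimates. Pnpla2-203, of 486 codons, held 3.67% of the gene's TPM in replicate 1 and 0.988% in replicate 2. Pnpla2-202, which lacks an exon of 168 bases and has 430 codons, held 20.9% and 15.8%, and Pnpla2-206, whose annotation stops inside the coding sequence, held 14.5% and 14.9%. The annotation limits this division: Pnpla2-203 ends 651 bases beyond Pnpla2-201, and 0 annotated coding transcripts both hold the 168-base exon and end within 10 bases of the end of Pnpla2-201. The tables hold no counts per exon, so how often the 82-base exon was included was not measured. Transcripts of the decay class together took 59.4% in replicate 1 and 67.3% in replicate 2, and 71.7% and 70.3% in the second quantification.

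**Figure D3:**
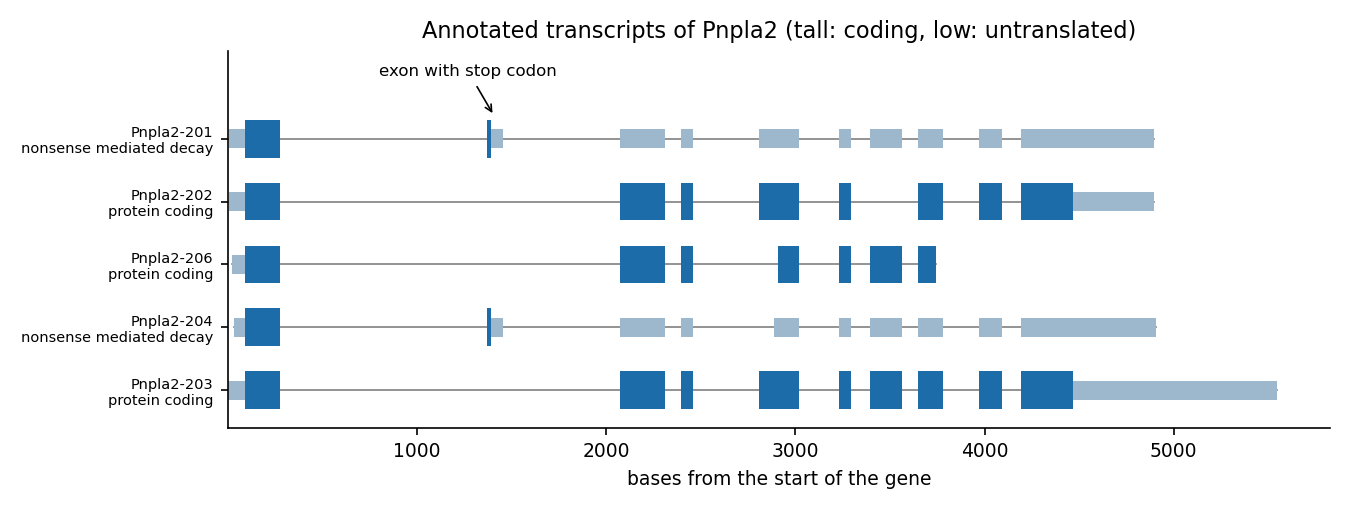
Exons of 5 annotated Pnpla2 transcripts against the distance in bases from the start of the gene, with coding parts tall and untranslated parts low. Pnpla2-201 and Pnpla2-204 carry the added exon with the stop codon, and Pnpla2-203 reaches 651 bases beyond the end of Pnpla2-201.

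Over all 10 genes 44 transcripts were annotated, and 23 held a share that averaged 10% or more. The leading transcript was the same in both libraries for 7 genes, and in both libraries and both quantifications for 6: Plin2, Plin4, Plin5, Pnpla2, Lipe and Cfd. Plin4-202 held 99.9% and 99.6% of Plin4 in replicate 1 and replicate 2 but 70.1% and 61.7% in the second quantification. Plin4-202 and Plin4-201 differ only by the first base, 5756 against 5755 bases, so their split does not separate 2 products. Plin5-201 held 68.6% and 73.2% of Plin5, and Plin5-202, whose start lies 298 bases away and whose coding sequence is identical, held 31.4% and 26.8%, but 0 in the second quantification.

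Lipe-208 led Lipe with 53.7% in replicate 1 and 48.9% in replicate 2, ahead of Lipe-202 with 17.6% and 32.8%, which shares its 2277 coding bases. Lipe-201, whose start lies 7155 bases before that of Lipe-208 and which has 129 more coding bases, held 10.7% and 9.06%. Plin2-201, the full coding form, held 43.7% and 36.1% of Plin2, the noncoding Plin2-208 held 32.2% and 31.2%, and Plin2-205 held 23.5% and 22.1%. Plin2-205 held 0 and 2.3% in the second quantification. Plin3 was split by TPM between Plin3-202, at 55.6% in replicate 1 and 47.3% in replicate 2, and Plin3-201, at 44.4% and 52.7%. Plin3-202 is short (562 bases), and by counts Plin3-201 took 86% of the reads in replicate 1 and 89.5% in replicate 2.

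The transcript shares of the adipocyte genes rested on few counts and differed between libraries or quantifications. All 12 counts of Cidec in replicate 1 went to Cidec-201, whereas in replicate 2 that transcript had 0 and Cidec-202, with the same 717 coding bases, held 57.8% of the TPM and Cidec-204 held 22.8%. Plin1-201 held 69.6% in replicate 1 and 5.31% in replicate 2, and Plin1-206 held 0 and 54.6%. Plin1-205 held 13% and 18.4%, and Plin1-203 held 17.4% and 3.86%. Adipoq-201 held 100% and 90.2%, but 45.7% and 49.3% in the second quantification. Cfd-201 held 77.8% and 80.4% and Cfd-202 22.2% and 19.6%, whereas the second quantification gave all of Cfd to Cfd-201.

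**Figure D4:**
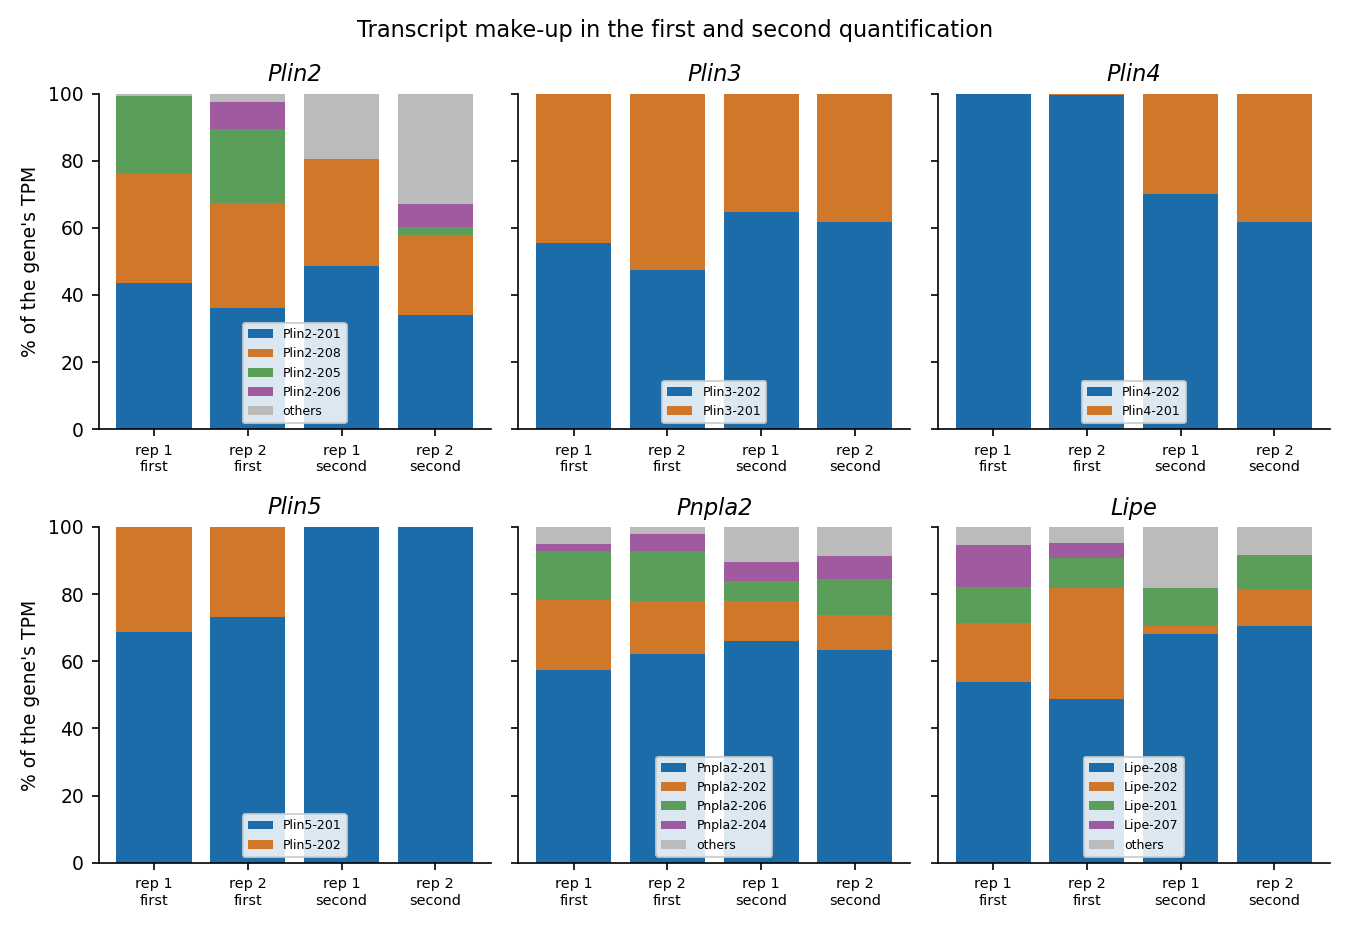
Share of each gene's TPM by transcript for 6 genes, in replicate 1 and replicate 2 of the first and the second quantification. Pnpla2-201 leads Pnpla2 in all 4 bars, while the minor transcript of Plin5 appears in the first quantification only.

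The adipocyte products were lower in replicate 1. Cfd (adipsin, a serine protease of the complement system secreted by fat; chr10:79890853-79892655) had 1.62 TPM in replicate 1, against 10.3 TPM in replicate 2, from 42 and 251 counts. Its log2 fold of counts was -2.73 (95% interval -3.24 to -2.26, exact binomial adjusted p = 1.7e-40), and its log2(TPM + 1) difference of -2.11 was the largest of the 10 genes. Adipoq (adiponectin, a hormone of adipocytes; chr16:23146536-23158028) had 0.42 TPM in replicate 1, against 2.24 TPM in replicate 2, from 16 and 75 counts, a log2 fold of -2.38 (95% interval -3.26 to -1.59, exact binomial adjusted p = 2.6e-10). Cidec, which joins droplets into the large one of white adipocytes (chr6:113424634-113435760), had 0.23 TPM in replicate 1, against 1.8 TPM in replicate 2, from 12 and 61 counts, a log2 fold of -2.50 (95% interval -3.53 to -1.59, exact binomial adjusted p = 4.6e-09). For each of the 3 genes the deposited intervals of the libraries lay apart.

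The 4 adipocyte genes differed between the libraries in the same direction. Their summed level was 2.49 TPM in replicate 1, against 16.4 TPM in replicate 2. Plin2 to Plin5 with Pnpla2 summed to 362.5 TPM in replicate 1, against 236.2 TPM in replicate 2. Relative to Plin1, Cidec was 1.05 in replicate 1 and 0.87 in replicate 2, Adipoq 1.91 and 1.08, and Cfd 7.36 and 4.98. In the second quantification these ratios were 0.624 and 1.26, 2.07 and 1.47, and 3.89 and 4.17. Those of Cidec and Cfd thus turned direction, and Plin1 had only 11 counts in replicate 1. The intervals of the log2 folds of counts of the 4 genes overlapped. In bulk muscle, fewer adipocytes and less of these RNAs per adipocyte cannot be told apart. The number of adipocytes, or fat left on the muscle, was not measured here.

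The promoters of Adipoq and Cfd are shown with the same window, source and motifs as those of Plin4 and Plin5.
Adipoq at chr16:23146436-23146555: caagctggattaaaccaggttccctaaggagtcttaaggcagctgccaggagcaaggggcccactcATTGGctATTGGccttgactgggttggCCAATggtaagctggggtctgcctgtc
Cfd at chr10:79890753-79890872: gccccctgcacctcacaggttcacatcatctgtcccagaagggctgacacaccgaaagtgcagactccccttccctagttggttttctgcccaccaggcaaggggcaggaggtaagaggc
The window of Adipoq holds the CCAAT box on both strands, 3 matches in all. That of Cfd holds none of the 5 motifs. TATAA is absent from both, and also from the promoters of Plin2, Plin3 and Pnpla2.

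Of 18 adipocyte markers, the 4 genes above included, 10 were lower and 3 higher in replicate 1. Of the 14 that are not among the 10 genes 13 were tested. In replicate 1, 6 were lower and 3 higher, against 10.9% and 10.6% of all genes tested. Scaling by the added RNA left 6 lower and 4 higher, and the second quantification gave 5 lower and 4 higher. Leptin (Lep) had 0.07 TPM in replicate 1, against 1.4 TPM in replicate 2 (exact binomial adjusted p = 8.0e-16). Pck1, which supplies glycerol for triacylglycerol in fat, had 0.37 and 2.61 TPM (exact binomial adjusted p = 4.5e-27), and Nnat had 0.63 and 3.29 TPM (exact binomial adjusted p = 1.0e-16). Acvr1c and Sncg were also lower in replicate 1, as was Retn, which was not called in the second quantification. The fatty acid carrier Fabp4, at 170.6 TPM in replicate 1, against 129.7 TPM in replicate 2, and carbonic anhydrase Car3, at 249 and 166 TPM, were higher in replicate 1. Both are also made outside adipocytes, Fabp4 in capillary endothelium and Car3 in muscle fibres. Other sources of the remaining markers, those lower in replicate 1 included, were not looked at. Fabp4 and Car3 dominate the summed level of those 14 markers, 435.0 TPM in replicate 1, against 317.7 TPM in replicate 2. The cell source of the markers on this list, whether lower or higher in replicate 1, was not tested. The glycerol channel Aqp7, at 6.54 and 5.93 TPM, was not called, except in the second quantification. The adipogenic regulator Pparg had 3.03 and 1.92 TPM and was higher in replicate 1. No marker of this list was at 0 in either library. Adrb3, with 1 count in each library, and Retn, with 1 count in replicate 1, lay under the floor of 3 counts there.

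**Figure D5:**
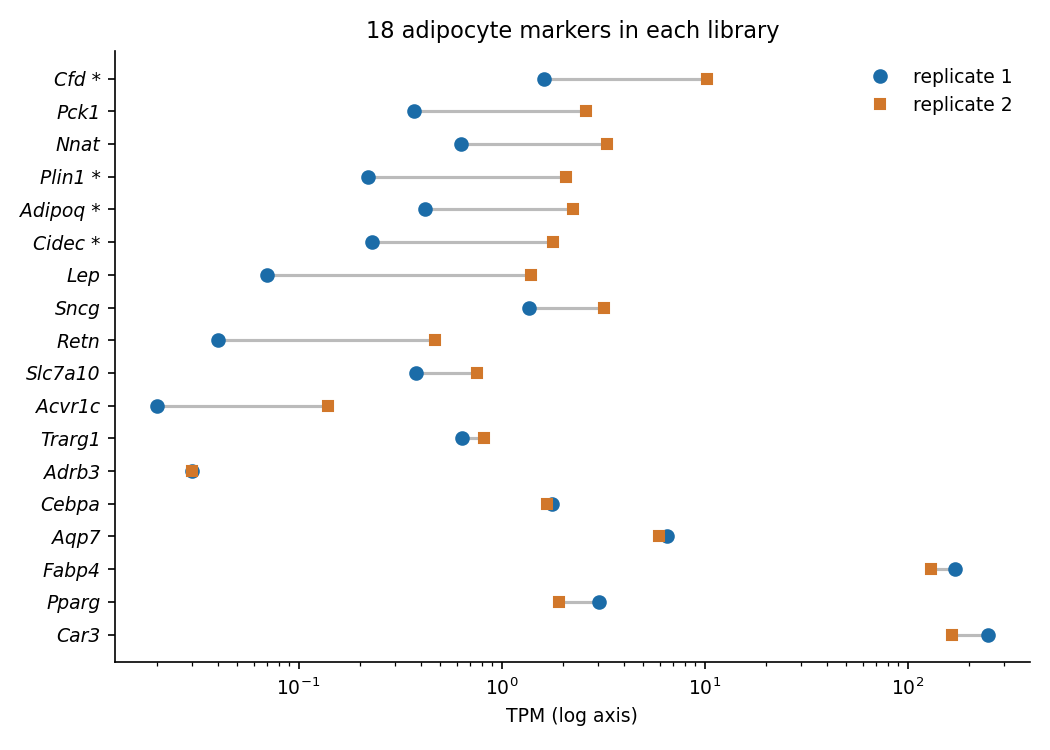
TPM of 18 adipocyte markers in replicate 1 (circles) and replicate 2 (squares) on a log axis, with asterisks at the 4 markers among the 10 genes, ordered by their log2 difference. Cfd, Pck1 and Nnat stand at the top, lower in replicate 1, and Fabp4, Pparg and Car3 at the bottom, higher in replicate 1.

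Other cell types were also compared. Of all genes tested, 10.6% were higher and 10.9% lower in replicate 1, against 50.8% and 1.72% when scaled by the added RNA. Of 8 brown adipocyte markers, 3 were lower and 1 higher in replicate 1 (2 lower and 3 higher when scaled by the added RNA), and Elovl3 was listed at 0 in both. Ucp1, the uncoupling protein of brown fat, had 0.02 TPM in replicate 1, against 0.43 TPM in replicate 2, and the one marker higher in replicate 1 was Ppargc1a, a regulator of mitochondrial genes also active in muscle, at 19.9 and 10.6 TPM. Cidea, at 2.15 and 1.28 TPM, and Ebf2, at 3.18 and 2.74 TPM, were not called. The summed level of the 12 fibro-adipogenic progenitor markers was 574.0 TPM in replicate 1, against 561.3 TPM in replicate 2, with 3 markers called in each direction (10 higher and 0 lower in replicate 1 when scaled by the added RNA). Their most abundant were Dcn, at 187 and 172 TPM, Col15a1, at 95.6 and 103 TPM, and Gsn, at 79.8 and 82.8 TPM. The 12 macrophage markers summed to 69.4 TPM in replicate 1, against 61.6 TPM in replicate 2, and of 11 tested 2 were higher in replicate 1 (6 when scaled by the added RNA, 1 in the second quantification). The macrophage genes Lyz2, at 13.5 and 12.2 TPM, Mrc1, at 11.6 and 10.2 TPM, and C1qb, at 9.41 and 7.93 TPM, led that list. Of 10 endothelial markers 7 were higher in replicate 1 (10 when scaled by the added RNA), with sums of 261.9 and 210.8 TPM in replicate 1 and replicate 2. Cdh5 had 61.4 and 55.2 TPM, Egfl7 48.1 and 29.3 TPM, and Pecam1 44.5 and 35.5 TPM. All 8 muscle fibre markers were lower in replicate 1, at a median log2 difference of -0.13, but 6 were higher and 2 lower when scaled by the added RNA. Beside Acta1 they were led by Mylpf, at 26007 and 28391 TPM, and Ckm, at 15935 and 17422 TPM. At the high counts of fibre markers even small differences were called, as for Myh4 at -0.02 on the log2(TPM + 1) scale. The part of these cell types in the values of the 10 genes was not tested.

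Genes that build or break down triacylglycerol were mostly not called, and most of those called were higher in replicate 1. The shares over all genes tested were 10.6% higher and 10.9% lower in replicate 1. Of 10 lipases and their partners other than Pnpla2 and Lipe, 3 were higher in replicate 1 and 1 lower, with a median log2 difference of 0.16. The monoacylglycerol lipase Mgll, which completes the breakdown, had 31.8 TPM in replicate 1, against 27 TPM in replicate 2, and Pnpla8, a phospholipase of the Pnpla2 family, had 43.2 and 34.8 TPM. Both were called, but Mgll was not in the second quantification (exact binomial adjusted p = 0.11). The Pnpla2 activator Abhd5, at 11.9 and 10.2 TPM, and its inhibitors G0s2, at 7.56 and 7.95 TPM, and Hilpda, at 2.4 and 1.74 TPM, were not called. Of 15 genes of triacylglycerol synthesis 13 were tested, and 4 were higher in replicate 1 and 0 lower, with a median of 0.21. The phosphatidate phosphatase Lpin1 had 52.7 TPM in replicate 1, against 36.3 TPM in replicate 2 (exact binomial adjusted p = 1.1e-66), whereas Gpam, the acyltransferase of the first step, had 55.5 and 51.6 TPM and was not called. The acyltransferase Agpat3 had 74.1 and 61.5 TPM and was called. Of 13 droplet assembly genes outside the 10, 11 were tested and 1 was called, Aup1, at 29.7 and 23.4 TPM, and that call was lost in the second quantification (exact binomial adjusted p = 0.0526). Among those not called were Fitm1, which partitions fat into droplets in muscle, at 205 TPM in replicate 1, against 191 TPM in replicate 2, and the droplet GTPase Rab18, at 65.5 and 68.4 TPM, which the second quantification called lower in replicate 1. Scaled by the added RNA, with 50.8% of all genes higher in replicate 1, so were 6 of the 10 lipase genes, 10 of the 13 synthesis genes tested and 9 of the 11 assembly genes tested.

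Genes known to respond to PPAR receptors in muscle were mostly higher in replicate 1, as Plin5 was. Of the 13 such genes outside the 10, all 13 were higher in replicate 1 under each scaling and in the second quantification, with a median log2 difference of 0.39. Of all genes tested 10.6% were higher in replicate 1 with TMM scaling, 10.4% in the second quantification and 50.8% when scaled by the added RNA. The list was chosen with these data known and was not tested as a set. Pdk4, which restrains glucose oxidation, had 893 TPM in replicate 1, against 317 TPM in replicate 2, and Angptl4, a secreted inhibitor of lipoprotein lipase, had 11.7 and 3.36 TPM (exact binomial adjusted p = 8.1e-56). Plin2 is on the same list and was not called. Of 10 fat uptake genes, which share Cd36 and Fabp3 with that list, 7 were higher in replicate 1 and 0 lower (9 higher when scaled by the added RNA). The fatty acid transporter Cd36 had 212 TPM in replicate 1, against 140.3 TPM in replicate 2, and the fatty acid binding protein Fabp3 had 527 and 411 TPM. Of 10 adipogenic transcription factors, 4 were higher in replicate 1 and 0 lower: Pparg, Cebpb, Cebpd and Klf15. Scaling by the added RNA gave 7 higher and 0 lower, and the second quantification 3 higher, without Cebpb, and 1 lower, Srebf1. Klf15 had 18 TPM in replicate 1, against 9.45 TPM in replicate 2, and Cebpb had 54.1 and 47.4 TPM. Srebf1 had 9.44 and 9.7 TPM.

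The receptors of adiponectin stood at higher levels than the hormone in both libraries. Adipor1 had 55.5 TPM in replicate 1, against 57.4 TPM in replicate 2, Adipor2 had 27.3 and 26.9 TPM, and T-cadherin (Cdh13), which binds adiponectin, had 58.7 and 55.1 TPM. Of the 5 genes of this list other than Adipoq, Adipor1 was called lower and Appl2 higher in replicate 1. Their differences were -0.05 and 0.38 on the log2(TPM + 1) scale. The shares over all genes tested were 10.9% lower and 10.6% higher. Scaled by the added RNA, all 5 were called higher in replicate 1, as were 50.8% of all genes tested.

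Among 10893 protein-coding genes that averaged 1 TPM or more and had at least 100 counts, Cfd had the second lowest log2 difference. The 3 genes nearest to it were Gm49369, with 0.47 TPM in replicate 1, against 4.35 TPM in replicate 2, the small GTPase gene Rrad, with 1.69 and 8.7 TPM, and the muscle LIM protein gene Csrp3, with 30.7 and 112 TPM. Their log2 differences were -1.86, -1.85 and -1.84. This likeness rests on 1 difference between 2 libraries.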

How the data were processed

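The study measured total RNA in 2 libraries of 1 group. Per the file headers, the authors deposited for each library expected counts and TPM per gene and per transcript, both limits of the interval that the quantifier put on each TPM (a signal on the TPM scale), and the percent of each gene's expression in each transcript. A second deposited table gave estimated counts and TPM from another quantification of the same reads. Coordinates are mm10 with GENCODE M21. The sources used here give neither the tools and settings nor whether counting used strand, and alleles of the 2 parental strains were not separated.

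Expected counts were rounded to whole numbers. Library sizes, without the 96 added RNA entries (0.731% of counts in replicate 1 and 0.881% in replicate 2), were scaled with TMM in edgeR 4.0.16 (R 4.3.3). Each gene with at least 10 counts over both libraries was tested with a two-sided exact binomial test (scipy 1.17.1) with Benjamini-Hochberg adjustment at 0.05. With 1 group there is no condition to compare, and the p-values and 95% intervals cover counting error between these 2 libraries only. The test was checked on simulated counts that held counting error only. That check cannot show how the test behaves with other variation between libraries. Differences of TPM use log2(TPM + 1), which understates changes of low genes. Shares are of a gene's summed transcript TPM. Alternatives were other scalings (total counts, DESeq2 1.42.0 size factors, added RNA), no minimum count, other pseudocounts and TPM levels, shares of counts, the second quantification and leaving out a replicate.

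The 10 genes and the 13 gene lists were chosen with earlier results of these data known. Named besides the 10 genes are their transcripts whose share averaged 10% or more, the 3 most abundant genes of each list and those called with a log2 difference over 1 in size, and the 3 protein-coding genes most like the gene with the largest difference. Some other genes are named for their role in the pathway or because a count was small, after their values were seen. Proteins were not used here.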

Additional observations from a re-analysis of the deposited data

How the results depend on the processing

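Of the 10 genes, 9 kept their call and direction under every scaling, without a minimum count and in the second quantification. Plin2 was the exception: its log2 fold was 0.14 when scaled by the added RNA (exact binomial adjusted p = 0.0663), and it was called at -0.21 in the second quantification. Scaling by the added RNA moved the median log2 fold of all genes to 0.28 and called 9052 of 17245 genes, 8756 higher and 296 lower in replicate 1, against 1829 higher and 1875 lower with TMM. Without a minimum count 3422 of 24647 genes were called. The log2 ratio of Plin2 to Plin5 over Plin1, 6.40, was 7.92 without a pseudocount. The log2 ratio of Pnpla2 over Lipe, 3.99, was 4.08 in the second quantification, 3.91 with posterior mean TPM, 4.15 with a pseudocount of 0.1 and 4.17 with none, each move larger than its very small spread. The median share of the leading transcript, chosen by its mean share over both libraries, was 55.6%, but 68% by counts. The cause of these moves was not tested. With 1 replicate left out, the number of genes at 1 TPM ranged from 7 to 10, the perilipin ratio from 5.36 to 7.45, the Pnpla2 ratio from 3.99 to 3.99 and the leading share from 55.6% to 69.1%. For the leading share the transcripts were kept as chosen over both libraries, although Plin1, Plin3 and Cidec had another leading transcript in replicate 2. No paired analysis was possible because the study has 1 group. Depth limits Plin1, Cidec and Adipoq, with 11 to 16 counts in replicate 1, and the division of their transcripts most.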
